A study of Mus musculus with 3 samples.

Results

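The genes described here are 7 genes of the red blood cell: the α-globin gene Hba-a1, the β-globin genes Hbb-b1 and Hbb-b2, the haem synthesis gene Alas2, the glycolytic shunt gene Bpgm, and the membrane protein genes Slc4a1 and Ermap. They were taken by name: every probe of the array whose gene name, or the current symbol of its accession, is one of the 7. Of the 7 genes, 6 had a probe of their own, 11 probes in all, out of 19505 gene symbols on the array. Hbb-b2 had none, although 2 of the 4 probes named Hbb-b1 also list its accession.

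The study hybridised aorta RNA of mice to 3 two-colour microarrays, on which RNA of both dyes binds to the same spots. Each array held 1 individual Plk1(+/-) aorta sample, heterozygous for the mitotic kinase gene Plk1, in the red dye Cy5. The green dye Cy3 carried the same pool of 3 wild-type aorta samples on every array. All mice were of strain 129/CD1 and 3 to 5 months old, and the labels name the Plk1(+/-) samples as biological replicates. The dyes were never swapped, so dye and genotype cannot be told apart. The pool is 1 control sample, and a test of the ratio against 0 leaves out the spread among wild-type mice. No treatment is given. The labels do not say whether the vessels were flushed of blood, and a growth protocol for embryonic stem cells stands beside the tissue label, which was followed.

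Mature mammalian red cells have no nucleus, but the youngest ones in the circulation, the reticulocytes, still carry messenger RNA, most of it for globin. Paired α-globin and β-globin chains, each holding a haem group, form haemoglobin. A dissected vessel can carry red cells along, so globin transcripts are common in RNA of whole tissues. Alas2 makes the first intermediate of haem in erythroid cells, Bpgm makes the 2,3-bisphosphoglycerate that lowers the oxygen affinity of haemoglobin, Slc4a1 (band 3) exchanges chloride for bicarbonate across the red cell membrane, and Ermap is an erythroid membrane protein of the immunoglobulin superfamily. In bulk RNA, fewer red cells and less RNA per red cell cannot be told apart.

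Whole-series facts were as follows. The median mean signal of a probe spot was 155 to 165 scanner units in Cy3 and 335 to 357 in Cy5, over local backgrounds of 52 to 53 and 70 to 71. A probe with equal signals in both dyes therefore lies below the array's typical probe. Saturated spots numbered 66 to 104 of 43379 in Cy3 and 574 to 627 in Cy5. Plk1, the targeted gene, read a log2 ratio of 0.10 ± 0.28 (SD, n = 3) on its single probe (limma, adjusted p = 0.706), and whether that probe lies in the altered part of the gene was not examined. The smooth muscle genes Acta2 and Tagln of the vessel wall were bright enough to reach saturation. The fit of observed on expected log ratios of the spike-in RNAs had intercepts of -1.26, -1.04 and -0.90 in log2 on the 3 arrays, per the file headers. A spike-in expected at equal amounts was thus fitted lower in Cy5 on every array, by about the size of the larger ratios below. Their part in the lower ratios below was not tested.

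The sequences of 6 probes show what the globin readings rest on. Coordinates are those of the files, build mm7, and each probe is 60 bases long, written 5′ to 3′. On Hbb-b1 (the accession of these probes is now listed under the symbol Hbb-bt), 1 probe could be read in both dyes on 2 of 3 arrays and 3 probes on none. The first of the lines below is the partly readable probe, at chr7:99864621-99864680 on the minus strand, and the second is 1 of those at the limit on every array, at chr7:99864305-99864363 on the same strand.
Hbb-b1, partly readable: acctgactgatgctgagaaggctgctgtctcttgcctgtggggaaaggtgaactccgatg
Hbb-b1, at the limit: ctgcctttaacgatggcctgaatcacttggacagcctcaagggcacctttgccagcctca
The partly readable probe lies upstream of the other 3 on the gene's strand. A further probe at the limit shares 29 bases with the second line, with 0 mismatches, so those 2 are not separate readings.

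The α-globin probes are shown with that of Hba-ps4, an α-globin pseudogene on another chromosome that is not among the 7 genes and was added after its values were seen. The first Hba-a1 probe spans chr11:32235785-32235966 on the plus strand, more than its own length, so it crosses a gap in the genome. The second lies at chr11:32235937-32235996 on the plus strand, and the Hba-ps4 probe spans chr17:24470047-24470211 on the minus strand. Capitals in the first line mark bases at which either other probe differs, and capitals in the other lines mark their differences from the first.
Hba-a1, first probe: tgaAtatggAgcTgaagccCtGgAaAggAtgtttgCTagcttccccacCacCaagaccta
Hba-a1, second probe: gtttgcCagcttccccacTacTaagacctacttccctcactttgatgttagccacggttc
Hba-ps4: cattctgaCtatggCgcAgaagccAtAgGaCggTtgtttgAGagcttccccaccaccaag
Both Hba-a1 probes share a stretch of 30 bases with 3 mismatches, which are T37C, C49T and C52T, counted from the first probe's 5′ end. The Hba-ps4 probe aligned with the first Hba-a1 probe over 55 bases with 10 mismatches, an identity of 81.8%. How much Hba-a1 RNA binds the Hba-ps4 probe was not tested. Hba-a1 and Hba-a2 are near-identical genes, as are the adult β-globin genes, so which copy a globin probe read is uncertain.

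The adult globins could not be compared between genotypes on 5 of their 6 probes. Both Hba-a1 probes and 3 of the 4 Hbb-b1 probes were saturated in both dyes on all 3 arrays, at 65203 to 65204 units in Cy3 and 65223 to 65224 in Cy5. Every pixel of these spots stood at the scanner's limit. The pool and all 3 Plk1(+/-) aortas therefore gave globin signal beyond what the scanner could read, and no fold exists for these probes. After normalization their log2 ratios lay between -1.49 and -1.43 on all arrays, although the raw signals were equal, and the authors' deposited log ratios lay between -1.63 and -1.50 in log2. These values come from signals fixed at a ceiling and are no measure of a difference.

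**Figure D1:**
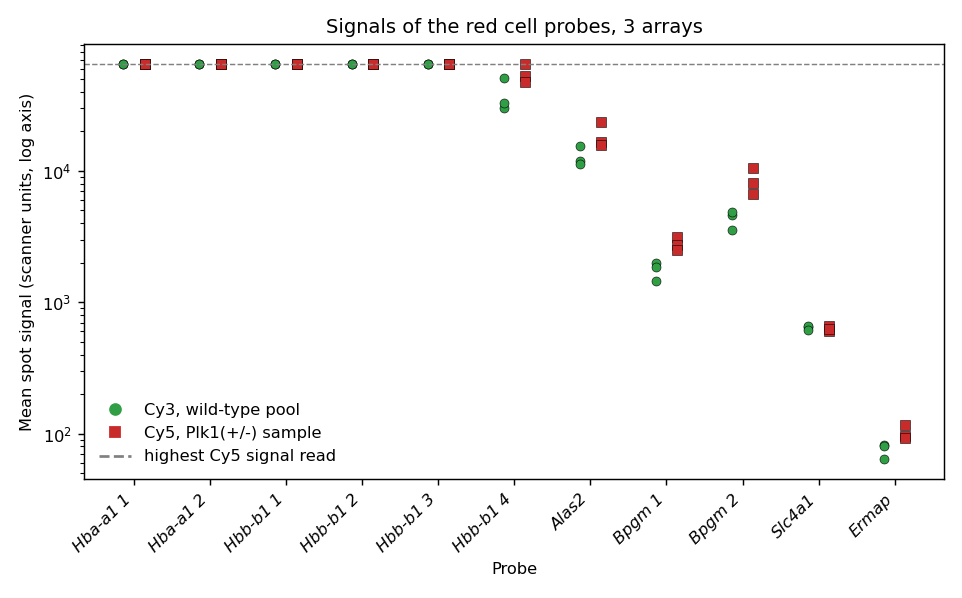
Mean spot signal (scanner units, log axis) of the 11 probes of the red cell genes on 3 arrays, with green circles for Cy3 (wild-type pool) and red squares for Cy5 (Plk1(+/-) samples). The 5 leftmost globin probes sit at the scanner's limit, 65203 to 65204 units in Cy3 and 65223 to 65224 in Cy5, and the Ermap probe sits between 64 and 116 units; heights of different probes are not comparable amounts of RNA.

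The partly readable Hbb-b1 probe was measured in both dyes on 2 of 3 arrays. Its Cy3 signals, all from the same pool, were 30224, 50766 and 32874 units, and its Cy5 signals were 65224, 52567 and 47782 units for samples 1, 2 and 3. The Cy5 spot of sample 1 was saturated in all 61 pixels, and that of sample 2 had 2 of 64 pixels at the limit. The log2 ratio was -1.38 in sample 2 and -0.95 in sample 3. In sample 1 it was computed as -0.34, which is only a lower bound, since the true Cy5 signal may be higher. Sample 1 thus had the highest Cy5 signal of the 3. The pool's own signal differed 1.68-fold between the arrays and was highest on the array of sample 2. No mean or test is given for this probe.

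Hba-ps4, on an unsaturated probe, gave 8795, 7780 and 7370 units in Cy3 and 18036, 6869 and 7688 units in Cy5. The log2 ratios of samples 1, 2 and 3 were -0.38, -1.56 and -1.43. They averaged -1.12 ± 0.65 (SD, n = 3), which did not pass the test (limma, adjusted p = 0.185). The pool's signal here differed 1.19-fold between arrays and the Cy5 signal 2.63-fold, with sample 1 alone high.

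The limma fit ran over 22170 features, of which 17086 stood for 1 gene symbol each and the rest were single probes without a symbol. It called 200 at an adjusted p under 0.05. Of these, 192 (0.866% of those tested) were lower in the Plk1(+/-) samples and 171 had a saturated spot. Of the 5 red cell genes that entered the fit, 3 were called lower: Slc4a1, and Hba-a1 and Hbb-b1 on probes at the limit. Leaving the globin probes aside, 1 of 3 genes without a saturated spot was called, where 0.0971% of the 21638 features of that kind were called lower. All 3 were below 0 on every array, as were 17.9% of those features, and all 3 had an unadjusted p under 0.05 with a lower ratio, as had 8.47%. A share of 3 genes is too coarse to be read against these percentages.

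Slc4a1, the anion exchanger, was the 1 member called lower in the Plk1(+/-) samples on a probe without a saturated spot. Its probe lies at chr11:102457981-102458040 on the minus strand (mm7). Cy3 signals of the pool were 650, 662 and 611 units, and Cy5 signals of samples 1, 2 and 3 were 659, 606 and 622. Raw signals were thus near equal in both dyes, and normalization reads this as lower because the typical probe was brighter in Cy5. The log2 ratios were -1.21, -1.36 and -1.31, all far below 0 and within 0.152 of each other. The mean was -1.29 ± 0.08 (SD, n = 3), or 2.45-fold lower than in the pool (limma, adjusted p = 0.0105). The call was lost when saturated features were left out before the fit (adjusted p = 0.165), without sample 2 (0.188) and without sample 3 (0.082), and it held without sample 1 (0.0415), while the mean ratio stayed between -1.34 and -1.26 in these fits.

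Alas2, the erythroid haem synthesis enzyme, had lower ratios with a wide spread and was not called. Its probe lies at chrX:145329125-145329184 on the plus strand. The pool gave 11902, 15389 and 11281 units in Cy3, a 1.36-fold range for the same RNA, and samples 1, 2 and 3 gave 23704, 16511 and 15647 units in Cy5. The log2 ratios were -0.43, -1.30 and -1.02, with sample 1 nearest to 0. The mean was -0.91 ± 0.44 (SD, n = 3; limma, adjusted p = 0.166). Centring each array on its median in place of loess gave a mean of -0.43, where the median of all features without a saturated spot stood at 0.23 instead of 0.04.

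Bpgm, the enzyme of the 2,3-bisphosphoglycerate shunt, was read by 2 probes. The one shown next reads across 16380 bases of genome, chr6:34419120-34435499 on the plus strand, and so spans spliced exons.
Bpgm, exon-spanning: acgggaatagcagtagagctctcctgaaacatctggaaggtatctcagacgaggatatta
It gave 1440, 2002 and 1864 units in Cy3 and 3115, 2737 and 2485 units in Cy5. Its log2 ratios were -0.22, -0.87 and -1.03, a mean of -0.70 ± 0.43 (SD, n = 3), not called with every probe on its own (limma, adjusted p = 0.192). The brighter probe, at chr6:34436000-34436059, gave 4649, 4847 and 3541 units in Cy3 and 10482, 8083 and 6644 in Cy5. Its log2 ratios were -0.23, -0.63 and -0.57, a mean of -0.48 ± 0.22 (SD, n = 3), again not called (limma, adjusted p = 0.177). Both probes put sample 1 nearest to 0 and samples 2 and 3 lower. With median centring the brighter probe's mean was -0.01.

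Ermap, the erythroid membrane-associated protein gene, was not well above background in either dye on any array. Its probe at chr4:118552374-118552433 on the minus strand gave 82, 64 and 81 units in Cy3 and 96, 116 and 92 in Cy5. It was not tested, and no fold is given.

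**Figure D2:**
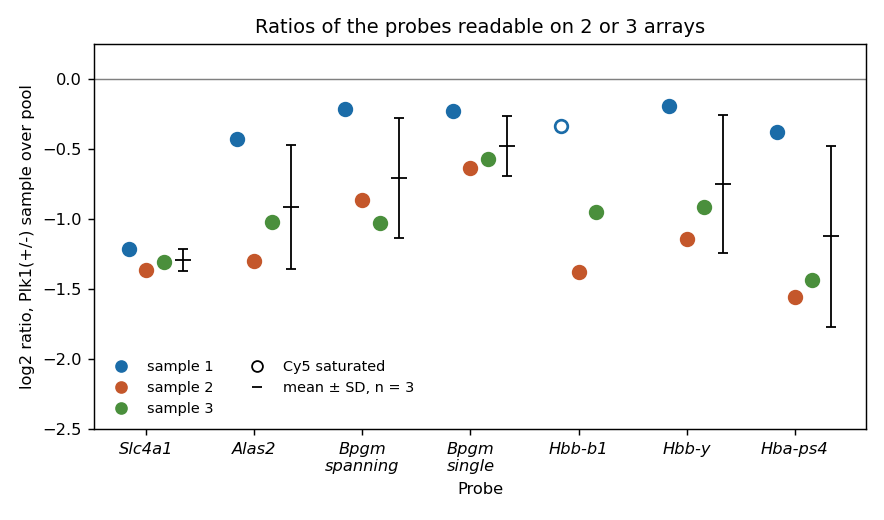
Log2 ratio of each Plk1(+/-) sample over the wild-type pool (y axis) for each red cell probe readable on 2 or 3 arrays and for the globin genes Hbb-y and Hba-ps4, with 1 point per sample and the mean ± SD over 3 samples beside it; the open point is the array on which Cy5 was saturated, a lower bound, and no mean is drawn there. The 3 Slc4a1 points lie together near -1.29, while for the other probes sample 1 lies above samples 2 and 3.

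Sample 1 lay nearest to 0 on all 4 member probes without a saturated spot. On the 3 of them that read Alas2 and Bpgm, sample 1 lay between -0.43 and -0.22, and samples 2 and 3 lay between -1.30 and -0.57. Slc4a1 had the same sample nearest to 0, but its 3 ratios differed far less. The 3 unsaturated members are thus alike in sign and not in their spread among samples. Among the lists of other cells, sample 1 also had the median nearest to 0 for smooth muscle, skeletal muscle, fibroblast, platelet, lymphocyte and endothelium. It did not for the neutrophil and fat lists. The share of all features with sample 1 nearest to 0 was not counted. The probes share the same 3 arrays and the same pool, so they are no separate evidence of a difference between the samples, and the difference was not tested.

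Other globin genes were measured on dimmer probes. Hbb-y, an embryonic β-like globin gene, had log2 ratios of -0.20, -1.14 and -0.91, a mean of -0.75 ± 0.49 (SD, n = 3; limma, adjusted p = 0.206). Its Cy5 signals were 2652, 1263 and 1524 units, with sample 1 again the highest, while its Cy3 signals were 1218, 1149 and 1088. Whether its probe also binds adult β-globin RNA was not tested. The θ-like gene Hbq1a gave -0.24 ± 0.25 (limma, adjusted p = 0.351). The embryonic α-like gene Hba-x was not well above background in the pool on any array, so no ratio is given. Of the 5 globin-list genes tested here, 0 were called, 2 were below 0 on all arrays and 1 was above 0 on all. Over all features without a saturated spot, 17.9% were below 0 on all arrays and 0.0971% were called lower. Ahsp, the α-globin chaperone gene, was not among the features tested.

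Together with the 5 globin-list genes above, 6 lists of red cell genes held 74 tested genes, 71 of them without a saturated spot. The limma fit called 1 of the 74, the glutathione peroxidase gene Gpx1, on a probe saturated in Cy5 on all 3 arrays, so that no fold is given for it. Of the 71, 22 were below 0 on all 3 arrays and 11 above 0 on all 3, and 19 had an unadjusted p under 0.05 with a lower ratio and 5 with a higher one. Over all features without a saturated spot, 17.9% were below 0 on all arrays and 8.47% had a lower ratio at that p, which are smaller shares than 22 and 19 of 71. The matching shares of higher features were not counted. The medians of the 71 were 0.01, -0.09 and -0.15 in samples 1, 2 and 3, beside 0.04, 0.01 and 0.04 over all features without a saturated spot. More of these genes than of all features thus had lower ratios, with medians much nearer to 0 than the Slc4a1 ratio. The genes were chosen with results known, so the difference in shares was not tested.

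Haem synthesis and mitochondrial iron genes were spread around 0. Of 12 tested, 0 were called and 3 were below 0 on all arrays (17.9% of all features without a saturated spot were), with medians of 0.02, -0.01 and -0.03. Slc25a37 (mitoferrin), which brings iron into mitochondria for haem, gave -0.75, -1.44 and -1.16, a mean of -1.11 ± 0.35 (limma, adjusted p = 0.0908), but its second probe had a mean of -0.08. Fech, which inserts iron into the haem ring, gave -0.25 ± 0.03 (adjusted p = 0.197), and the iron-sulphur cluster gene Glrx5 gave 0.34 ± 0.06 (0.159) in the same limma fit.

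Among membrane and skeleton genes, Ank1 and Epb42, whose proteins bind band 3, had lower ratios without passing the test. Of 21 without a saturated spot, 8 were below 0 on all arrays, beside 17.9% of all features without a saturated spot, and 0 were called. Of the same 21, 3 were above 0 on all arrays. At an unadjusted limma p under 0.05, 7 had a lower ratio, beside 8.47% of all features without a saturated spot, and 2 a higher one. The list's medians were -0.01, -0.14 and -0.20 in samples 1, 2 and 3. The gene Ank1, encoding the ankyrin that ties band 3 to spectrin, gave -0.79, -1.04 and -2.25, a mean of -1.36 ± 0.78 (limma, adjusted p = 0.183), and 2 further Ank1 probes had means of -0.58 and -0.54. Epb42 (protein 4.2), which binds band 3, gave -0.53 ± 0.22 (limma, adjusted p = 0.166), on a probe well above background on 1 of 3 arrays in each dye. Both were lowest in sample 3, while Slc4a1 was lowest in sample 2. The skeletal muscle list was also lowest in sample 3, with medians of -0.69, -0.95 and -2.95 in samples 1, 2 and 3. Whether muscle RNA had a part in the Ank1 ratios was not tested.

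Genes of reticulocyte maturation had medians of 0.00, -0.35 and -0.33, with 6 of 13 below 0 on all arrays, beside 17.9% of all features without a saturated spot, and 0 called. Trim10, a ubiquitin ligase gene of terminal erythroid cells, gave -0.55, -0.70 and -0.47, a mean of -0.58 ± 0.12 (limma, adjusted p = 0.0913). Tent5c, a poly(A) polymerase gene, gave -0.81 ± 0.45 (adjusted p = 0.185). The ubiquitin ligase gene Mkrn1 gave -0.38 ± 0.21 in the same limma fit (adjusted p = 0.207), and its second probe 0.11.

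Red cell enzymes and erythroid regulators lay near 0. Among 10 enzyme genes without a saturated spot, the carbonic anhydrase gene Car2 gave -0.31 ± 0.15, the cytochrome b5 reductase gene Cyb5r3 -0.18 ± 0.21 and the glutathione reductase gene Gsr 0.10 ± 0.03, with adjusted p-values of at least 0.211 in the limma fit. Among 10 regulators, the erythropoietin receptor gene Epor gave 0.23 ± 0.13 and the repressor gene Gfi1b 0.18 ± 0.09, with adjusted p-values of at least 0.256 in the limma fit. The erythroid transcription factor gene Klf1 was not well above background in the pool on any array, so no ratio is given. None of these was called.

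**Figure D3:**
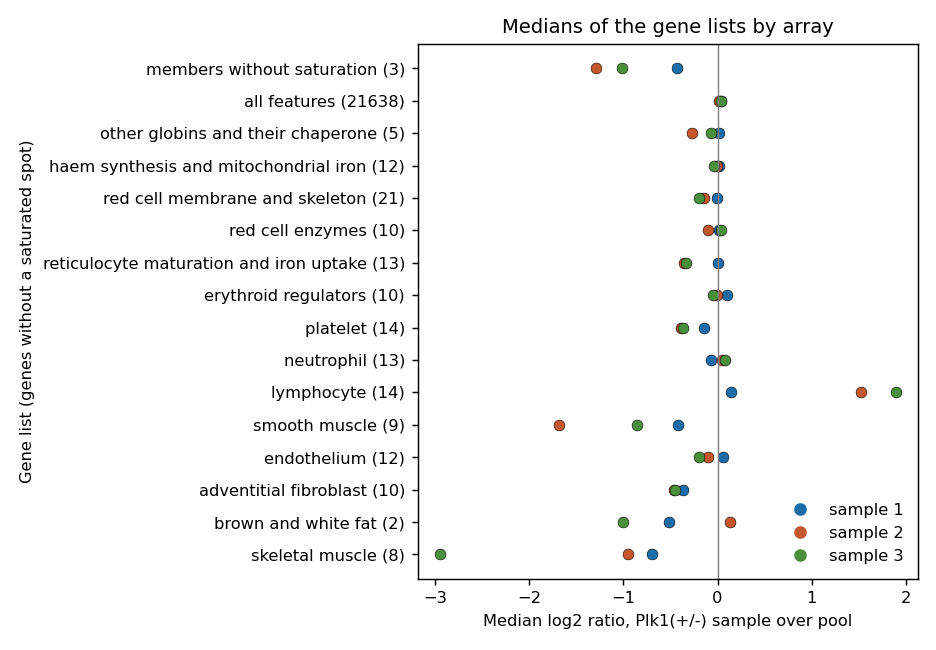
Median log2 ratio over the wild-type pool (x axis) of each gene list, with 1 point per Plk1(+/-) sample and the number of genes without a saturated spot in brackets. The median of the 3 measurable members, which is Alas2 on every array, sits at -0.43, -1.30 and -1.02, the further red cell lists between -0.35 and 0.10, and the smooth muscle list at -0.42, -1.68 and -0.85.

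Markers of other cells differed from 0 to unequal degrees on the same arrays, and their part in the red cell ratios was not tested. Platelet genes, the other anucleate blood cells' markers, had medians of -0.15, -0.39 and -0.36, with 8 of 14 below 0 on all arrays, beside 17.9% of all features without a saturated spot. Neutrophil genes stood at -0.07, 0.05 and 0.08, with 1 of 13 below 0 on all. Lymphocyte genes stood at 0.14, 1.52 and 1.89, with 12 of 14 above 0 on all arrays, and the share of all features above 0 on all arrays was not counted. The medians of the blood cell lists thus differed in sign. Smooth muscle genes stood at -0.42, -1.68 and -0.85, with 9 of 9 unsaturated genes below 0 on all arrays, in the same sample order as Alas2. Adventitial fibroblast genes stood at -0.37, -0.47 and -0.45, and skeletal muscle genes at -0.69, -0.95 and -2.95. None of the genes without a saturated spot in these lists was called by limma, the lowest adjusted p being 0.0909 in the fibroblast list. On probes with a saturated spot, 6 of 10 fat genes and the smooth muscle genes Acta2 and Tagln were called lower. Over all features, 0.866% were called lower. No fold is given for these saturated probes.

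The genes whose 3 ratios lay closest to the medians of Slc4a1, Alas2 and Bpgm were on none of the red cell lists. Those medians equal the ratios of Alas2, the middle gene of the 3 on every array, so the match is to that gene. The measure was the Euclidean distance over 3 values, among 16635 symbols without a saturated spot. They were the long noncoding RNA gene Snhg18 at a distance of 0.0815, the collagen-binding proteoglycan gene Fmod at 0.0988, the small heat shock protein gene Hspb2 at 0.135, the ubiquitin ligase subunit gene Asb2 at 0.151 and the forkhead factor gene Foxc1 at 0.17. None of the 5 was called by limma, their adjusted p-values lying between 0.144 and 0.191. In all, 19 genes lay within 0.25.

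The promoters of the erythroid members are shown because the GATA motif is the classical mark of red cell genes. RefSeq promoters (GRCm38.p6) were given for 5 of the 7 genes: Alas2, Ermap, Hba-a1, Bpgm and, under the symbol Hbb-bt, the gene of the Hbb-b1 accession. The letters GATAA, searched on both strands in the 250 bases before the start, occurred in 4 of these 5 and in 22.6% of 32851 promoters of the same length. Capitals mark the motif, which reads TTATC where it lies on the opposite strand, and each line follows the gene's strand.
Hba-a1, chr11:32283475-32283509, plus: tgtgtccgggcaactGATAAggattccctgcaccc
Hbb-bt, chr7:103814108-103814142, minus: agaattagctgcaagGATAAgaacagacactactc
Alas2, chrX:150547316-150547350, plus: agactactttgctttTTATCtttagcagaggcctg
Ermap, chr4:119190043-119190077, minus: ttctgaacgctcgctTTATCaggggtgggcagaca
The Bpgm window held no match. The CACC-type motif CCNCNCCC, both strands, occurred in 3 of the 5 (Bpgm, Hbb-bt and Alas2) and in 45.9% of all promoters. A match is a string of letters, and nothing here measured binding.

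**Figure D4:**
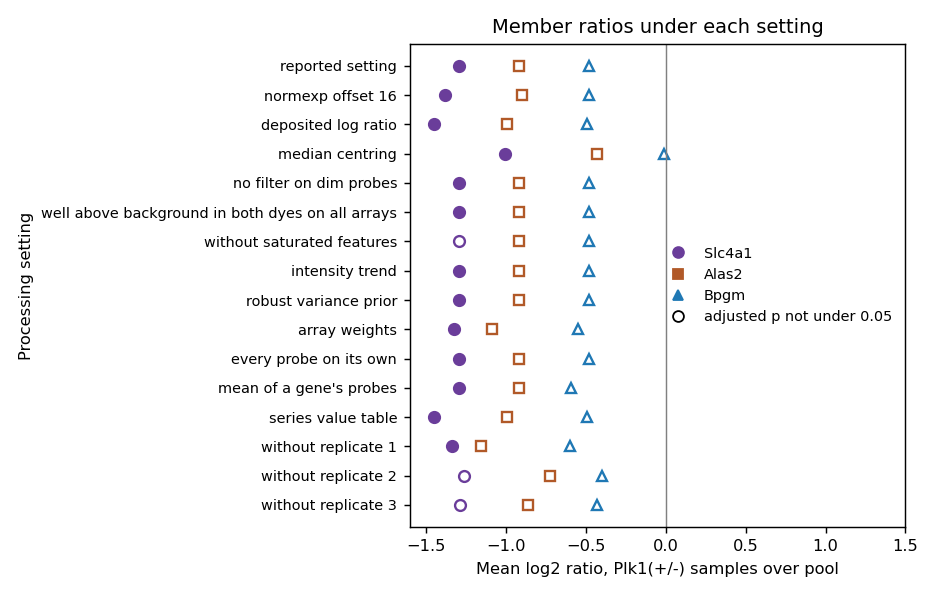
Mean log2 ratio over the wild-type pool (x axis) of Slc4a1, Alas2 and Bpgm under the reported processing and 15 alternatives (y axis), with filled symbols where the adjusted p was under 0.05. Slc4a1 stays between -1.45 and -1.01 and Alas2 between -1.16 and -0.43, while Bpgm reaches -0.01 with median centring.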

How the data were processed

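Aorta RNA was amplified with an RNA polymerase and dye-labelled before hybridisation, per the labels' protocols. The deposited scanner files give spot intensity values from Agilent Feature Extraction, per the file headers, before background subtraction, and a log10 ratio that the authors' software made after background subtraction and dye normalization. The deposited series table gives log2 ratios for 28817 of 41174 probes, on the scale and in the direction of the scanner's ratio (slopes of 0.997 to 0.999), with its centring unstated.

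Mean signals were corrected with normexp (offset 50) and loess within each array (limma 3.58.1, R 4.3.3), with control spots at weight 0. Control and outlier spots were left out, spots of a probe averaged, and a probe kept where 2 or 3 arrays had it well above background in Cy3 or Cy5. Each gene symbol was read by its brightest kept probe, and kept probes without a symbol stayed single features. Then lmFit and eBayes tested the ratio against 0 over 22170 features, with Benjamini-Hochberg adjustment at 0.05. The fit was repeated under 15 alternatives. It was also run on simulated ratios with no dye effect and no shared pool, so that run cannot speak to the calls reported here. Genes were named through RefSeq accessions for 22951 probes, a current symbol for 6659, a synonym for 3109, and as in the files for 8455. No annotation of mm7 was used, so exons and untranslated regions were not assigned.

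The members and lists were chosen with earlier results of these data known. Named from the lists were all genes called and up to 3 unsaturated genes with the smallest unadjusted p, and as most alike the 5 nearest genes; some of the genes so chosen are not reported here. With 3 arrays and 1 pool, their number limits the precision.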

Additional observations from a re-analysis of the deposited data

How the results depend on the processing

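The mean ratios of Slc4a1 and Alas2 stayed below 0 under all 15 alternatives, as did that of Bpgm except that it was near 0 with median centring (-0.01, adjusted p = 0.936 by limma). Alas2 and Bpgm were called under none of them. Over all features 200 were called, 434 under estimated array weights, 120 with the deposited log ratio, and 9767 after median centring, with 73.1% of calls higher against 4% as reported. Leaving out saturated features gave 0 calls (3816 at an unadjusted p under 0.05), and leaving out 1 replicate gave 0 to 174, 0 without sample 2 (1977 unadjusted) or sample 3 (3104 unadjusted). The member genes called, 3 as reported, were 0 without saturated features and 0 to 3 with 1 replicate left out, 0 without sample 2 or sample 3. Further red cell genes called, 1 of 74 as reported, were 0 with the deposited log ratio and 0 without saturated features. They were 38 of 74 with median centring, where 9767 of all 22170 features were called. The directions of the 38 were not counted. With array weights they were 3 of 74 (Gpx1, Slc25a37 and Trim10), beside 434 of all 22170 features. With 1 replicate left out they were 0 to 1. Leaving out saturated features removes the 171 called features that had a saturated spot. The 29 called without one stayed in the fit and were no longer called. The causes of these changes were not tested. Each fit without a replicate rests on 2 arrays. No paired analysis was possible because there is 1 group of samples set against 1 pool.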
